A study of Mus musculus with 32 samples.

Results

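The livers of chow-fed female mice lacking *Cyp2c70* were compared with those of chow-fed female WT mice across all expressed genes. The comparison uses 8 of the 32 RNA-Seq libraries of the study, 4 *Cyp2c70* KO and 4 WT livers, chosen by their labels for sex, genotype and diet. All 8 mice were on a C57BL/6 background, ate rodent chow and were killed at 12 weeks of age. The KO mice descend from a single founder in which CRISPR-Cas9 editing had removed a stretch of genomic DNA around exon 2 of *Cyp2c70*, so they are 1 line, and the WT mice carry no edit. The other libraries come from males of both genotypes and from mice of either sex fed SC-435, an inhibitor of the ileal bile acid transporter. RNA came from frozen lobes of livers perfused with buffer, so hepatocytes, bile duct cells and blood cells contribute to each library. The values are read counts per gene, given here as CPM, counts scaled by edgeR to a common library size, and values of single mice follow the order of replicates 1 to 4. No label ties a KO mouse to a WT mouse, and the p values measure the spread among these mice only.

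Bile acids are made from cholesterol in hepatocytes, secreted into bile through canalicular transporters, taken up again in the ileum and returned to the liver. Mice turn chenodeoxycholic acid into the hydrophilic muricholic acids with the cytochrome P450 enzyme Cyp2c70, a step that humans lack. Without it the bile acid pool is more hydrophobic, and hydrophobic bile acids are strong ligands of the nuclear receptor FXR and can damage the cells that line the bile ducts.

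*Cyp2c70* (ENSMUSG00000060613, minus strand, chr19:40153353-40187333 in GRCm38) has 9 exons in its annotated coding transcript. Exon 2 is shown because it is the exon that the edit took out. It is coding sequence at chr19:40183866-40184028, and its 163 bases leave a remainder of 1 after division by 3. In the GENCODE transcript, joining exon 1 to exon 3 brings a stop codon after 76 codons, against 489 codons in the annotated protein. The second line shows the last 30 coding bases of exon 1 (chr19:40187095-40187124) joined to exon 3 from its start through the first stop in the new frame (chr19:40180448-40180510), with that stop codon in capitals. Both are written 5′ to 3′ on the coding strand.
Exon 2: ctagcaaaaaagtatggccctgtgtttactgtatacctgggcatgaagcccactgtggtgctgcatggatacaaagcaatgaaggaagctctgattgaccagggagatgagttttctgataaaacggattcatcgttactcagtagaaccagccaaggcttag
Exon 1 joined to exon 3: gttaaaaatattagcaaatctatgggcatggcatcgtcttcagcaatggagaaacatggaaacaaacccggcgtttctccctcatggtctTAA

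Reads on *Cyp2c70* were reduced in the KO livers and not absent. The gene was at 900.3, 744, 623 and 733 CPM in WT mice and 161, 185, 165 and 187 CPM in KO mice. The groups did not overlap, and the KO mean was 23.3% of the WT mean, which is -2.1 (standard error 0.13, adjusted p = 0.000102) on the log2 scale. An exact two-sided permutation test gave p = 0.0286, the smallest that 4 mice against 4 allow. Counts were made over the whole gene, so they do not tell how many KO reads skip exon 2.

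Counted reads per library ran from 38453252 to 44771350, and 16205 genes passed edgeR's filter on low counts. At an adjusted p under 0.05, 1593 genes rose in KO livers, which is 9.83% of the genes tested, and 818 fell, which is 5.05%. Of these, 919 rose more than 2-fold (5.67%) and 163 fell more than 2-fold (1.01%). In 3390 genes (20.9%) the 4 KO mice and the 4 WT mice did not overlap. Rises made up 66.1% of the calls, and 90.8% when libraries were scaled by their totals alone, which shifted the median over all genes by 0.19 from -0.02 on the log2 scale. In bulk liver, fewer cells of a type and less RNA per cell cannot be told apart.

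**Figure D1:**
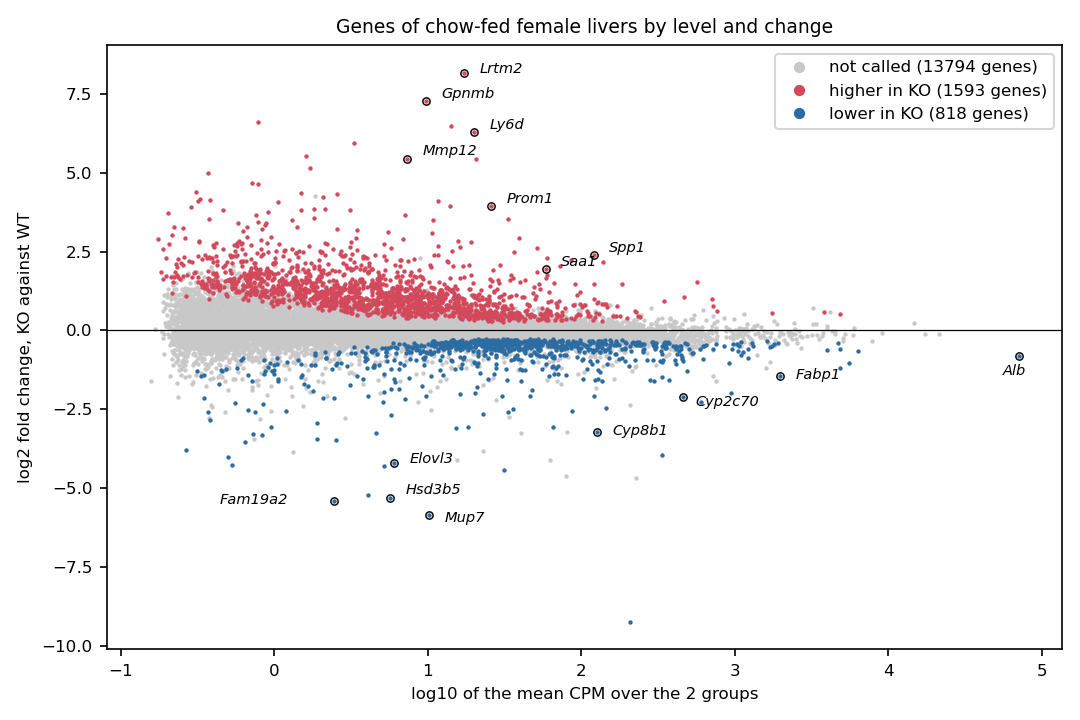
Each point is 1 of the 16205 genes tested, with the log10 of its mean CPM over the 8 mice on the x axis and its log2 fold change in KO against WT mice on the y axis. The 1593 genes that rose are red, the 818 that fell are blue, and the labelled genes include *Cyp2c70* at -2.10 and *Gpnmb* at 7.27.

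KO replicate 4 stood apart from the other KO mice in most of what follows. On the first principal component, which held 51.7% of the variance of log2 CPM, the WT mice lay between -42.9 and -38.4, KO replicates 1 to 3 between 46.0 and 59.1, and KO replicate 4 at 2.81. Its *Cyp2c70* level of 187 CPM was that of the other KO mice. Of the 1593 genes that rose, KO replicate 4 was the lowest KO mouse in 69.9%, against 25.6% of the genes not called, and of the 818 that fell it was the highest KO mouse in 48.3%, against 30.2% of the genes not called. Without it, 2081 genes rose and 1116 fell, and these hold 1569 of the 1593 rises and 635 of the 818 falls. KO replicate 2 lay at the other end, as the highest KO mouse in 50.9% of the genes that rose. Without KO replicate 2, 959 genes rose, 242 fell and 92 fell more than 2-fold, and without KO replicate 4, 344 fell more than 2-fold. Falls numbered 393 without WT replicate 2, 423 without WT replicate 3, 545 without KO replicate 1 and 345 without KO replicate 3. A fit with 1 mouse fewer has less power, so a call lost there, here or below, need not depend on that mouse.

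Called protein-coding genes whose groups were apart, at 50 counts or more on average, were ranked by size. The call and the lack of overlap in the ranked genes were thus set by the choice. Among rises, the first 10 were *Lrtm2*, *Gpnmb*, *Ly6d*, *Sprr1a*, *Dnah1*, *Mmp12*, *Cib3*, *Inava*, *Mmp13* and *Ubd*, with log2 fold changes from 8.16 down to 4.31. All 10 were called in each of the 8 fits that left out 1 mouse. *Gpnmb*, a transmembrane glycoprotein of lipid-laden macrophages, was at 0.167, 0.125, 0.0775 and 0.126 CPM in WT mice and 10.3, 52.6, 11.6 and 3.14 CPM in KO mice. KO replicate 2 was far above the other KO mice and KO replicate 4 below them, and the change was 7.27 (standard error 0.99, adjusted p = 0.0023). *Ly6d*, a surface protein of squamous epithelium and B cell precursors, was at 0.611, 0.423, 0.646 and 0.329 CPM in WT mice and 12.9, 61.7, 79.1 and 4.05 CPM in KO mice, a change of 6.3 (standard error 0.94, adjusted p = 0.00299). *Lrtm2*, a leucine-rich repeat membrane protein, was at 0.0555, 0.0498, 0.0517 and 0.303 CPM in WT mice and 27.7, 51.4, 44.8 and 13 CPM in KO mice. It overlaps *Cacna2d4* on the other strand, which rose by 4.67 from far fewer counts, and reads of the pair cannot be separated if the counting ignored strand. *Cib3*, a calcium and integrin binding protein, was at 0.778, 0.448, 2.17 and 0.354 CPM in WT mice and 30.4, 58.5, 64.5 and 8.33 CPM in KO mice, a change of 5.43 (standard error 0.73, adjusted p = 0.00219). *Dnah1*, a dynein heavy chain of cilia and flagella, was at 0.111, 0.0249, 0.0517 and 0.0758 CPM in WT mice and 2.14, 6.4, 2.95 and 1.06 CPM in KO mice, and *Inava*, an adaptor that shapes innate receptor signals and epithelial junctions, was at 0.0555, 0.125, 0.181 and 0 CPM in WT mice and 5.09, 3.36, 2.82 and 1.96 CPM in KO mice. Both were near 0 in the WT mice, with changes of 5.54 (standard error 0.67, adjusted p = 0.00178) and 5.15 (standard error 0.56, adjusted p = 0.00144). *Ubd* encodes the ubiquitin-like protein FAT10, known to follow interferon-gamma and TNF, and was at 0.50, 0.0498, 0.233 and 0.202 CPM in WT mice and 5.19, 7.08, 5.59 and 1.6 CPM in KO mice, a change of 4.31 (standard error 0.58, adjusted p = 0.00219).

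Among falls, the first 10 were *Mup7*, *Fam19a2*, *Hsd3b5*, *Sult3a2*, *Sult2a1*, *Mup14*, *Elovl3*, *Serpina9*, *Cyp8b1* and *Pcp4l1*, with log2 fold changes from -5.86 to -3.09. *Fam19a2*, a small secreted protein best known from the brain, was at 7.0, 4.51, 5.07 and 2.6 CPM in WT mice and 0.144, 0.102, 0.0425 and 0.155 CPM in KO mice. The change of *Fam19a2* was -5.41 (standard error 0.42, adjusted p = 0.00028). *Pcp4l1*, a small protein related to a Purkinje cell protein, was at 17.1, 17.4, 32.6 and 42.4 CPM in WT mice and 2.53, 1.9, 1.59 and 6.96 CPM in KO mice, a change of -3.09 (standard error 0.49, adjusted p = 0.00399). *Sult3a2*, a sulfotransferase, was at 15.3, 12.6, 2.74 and 1.01 CPM in WT mice and 0.0618, 0.0409, 0 and 0.825 CPM in KO mice, and *Serpina9*, a serine protease inhibitor of the alpha-1-antitrypsin cluster, was at 2.06, 6.97, 3.59 and 1.34 CPM in WT mice and 0.309, 0.102, 0.616 and 0.258 CPM in KO mice. Their changes were -5.2 (standard error 1.12, adjusted p = 0.0135) and -3.43 (standard error 0.60, adjusted p = 0.00614). The call of *Sult3a2* was lost with the replicate number as a block (adjusted p 0.0581). For *Mup7*, WT replicate 2 alone was at 72.6 CPM while the other WT mice were between 1.09 and 4.22 CPM. Without WT replicate 2 or KO replicate 1, 2 or 3 the call of *Mup7* was lost, with adjusted p values of up to 0.0963, and *Mup14* lost its call without KO replicate 2 or 3 (up to 0.062). The replicate number as a block also lost the call of *Mup7* (adjusted p 0.111).

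Genes were also grouped into 50 lists by function or cell type. Of their 911 genes, 839 passed the filter on low counts and 72 were not tested, and 34 genes stand in more than 1 list. A low gene could pass that filter on the mice of 1 group alone, which can raise the shares called. The shares of all genes that rose (9.83%) or fell (5.05%) are the background for the counts below. The examples follow a rule given below. It left a choice among the defining genes of each list, and the lists were written with earlier results of these data known. Exceptions are *Cyp27a1*, *Cyp46a1*, *Apoa1*, *Spp1*, *Il1rn*, *Vcam1*, *Relb* and *Nfkb2*, which were chosen after their values were seen. Within the lists, 153 of the 919 genes over 2-fold higher and 42 of the 163 over 2-fold lower were found.

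**Figure D2:**
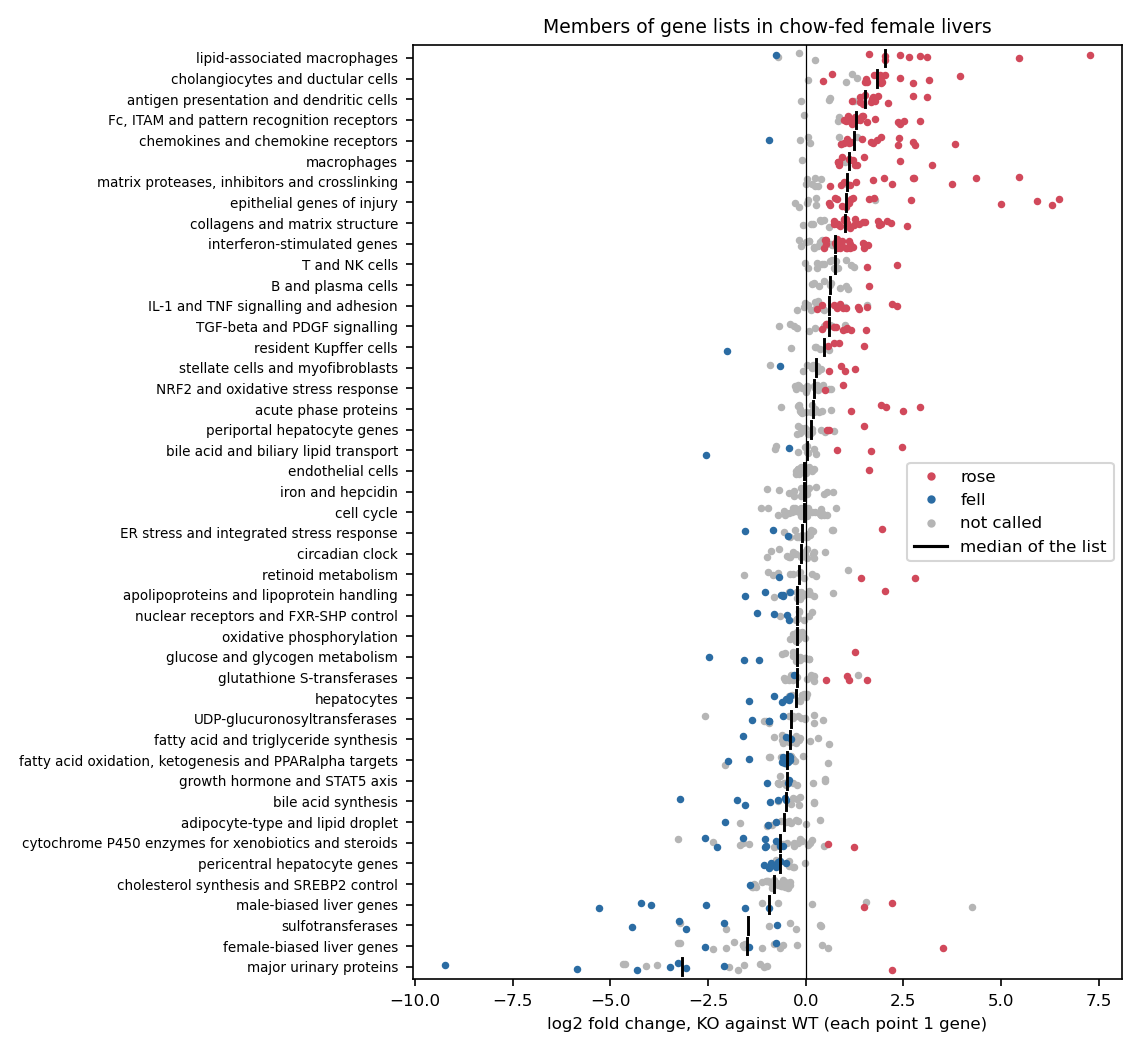
Each point is 1 tested gene of a list, with its log2 fold change in KO against WT mice on the x axis, red where it rose, blue where it fell and grey where it was not called. Black bars mark the list medians, which run from -3.17 for major urinary proteins to 2.04 for lipid-associated macrophages.

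Of 15 tested genes of bile acid synthesis (of 16 listed), 7 fell, with a list median of -0.51. *Cyp8b1*, the sterol 12-alpha-hydroxylase that directs synthesis to cholic acid, was at 315, 305, 191 and 98.9 CPM in WT mice and 9.47, 2.84, 14.4 and 71.2 CPM in KO mice. KO replicate 4 was far above the other KO mice and close to the lowest WT mouse, and the change was -3.22 (standard error 0.84, adjusted p = 0.0287). Its call was lost without WT replicate 1, 2 or 3 or KO replicate 1 or 3 (adjusted p up to 0.0823), and with the replicate number as a block (0.0532). *Cyp7a1*, the rate-limiting enzyme of the classical pathway, was at 75.1, 55.3, 72.4 and 15.1 CPM in WT mice and 9.31, 26.3, 103 and 114 CPM in KO mice. Its groups overlapped widely in both directions, with KO replicates 1 and 2 low and KO replicates 3 and 4 above every WT mouse, and its change was 0.21 (standard error 0.70, adjusted p = 0.871) on the log2 scale. In the acidic pathway, *Cyp27a1*, the mitochondrial sterol 27-hydroxylase, was at 690.1, 705, 685 and 540.5 CPM in WT mice and 373, 361, 414 and 459 CPM in KO mice. The groups did not overlap, and the change of -0.71 (standard error 0.12, adjusted p = 0.00611) was called in each fit without 1 mouse. *Cyp7b1*, the oxysterol 7-alpha-hydroxylase, fell by 1.56 on the log2 scale (adjusted p = 0.025), a call lost without WT replicate 1 or 2 or KO replicate 1, 2 or 3 (up to 0.0804). *Cyp46a1*, the cholesterol 24-hydroxylase, was at 3.03, 1.99, 1.91 and 3.23 CPM in WT mice and 0.494, 0.655, 0.595 and 1.29 CPM in KO mice, a change of -1.75 (standard error 0.33, adjusted p = 0.00803). The conjugating enzyme *Baat* (log2 fold change -0.21, adjusted p = 0.225) and *Cyp2a12*, the murine bile acid 7-alpha-hydroxylase of returning secondary bile acids (-0.32, adjusted p = 0.0814), did not pass the test. The list count fell from 7 to 4 without WT replicate 2, KO replicate 2 or KO replicate 3.

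Transporters of bile acids and biliary lipids moved unequally, 3 of 14 tested genes (of 15 listed) rising and 2 falling around a median of 0.028. Among exporters to blood on the basolateral side, *Slc51b*, the beta subunit of the organic solute transporter and an FXR target, was at 0.417, 0.0996, 0.465 and 0.708 CPM in WT mice and 2.66, 4.13, 1.25 and 1.24 CPM in KO mice. It was low in every mouse, without overlap, and the change was 2.46 (standard error 0.54, adjusted p = 0.0153). It overlaps *Rasl12* on the other strand, a gene of fewer counts. *Abcc4*, another basolateral exporter, was at 4.8, 6.6, 6.05 and 5.36 CPM in WT mice and 8.67, 11, 10.05 and 10.2 CPM in KO mice, and its change of 0.80 (standard error 0.14, adjusted p = 0.00513) held in each fit without 1 mouse. *Abcb1a*, a canalicular multidrug transporter, was the other gene that rose (1.67, standard error 0.33, adjusted p = 0.0097). Among uptake carriers, *Slco1a1* was at 194, 282, 63.8 and 53 CPM in WT mice and 16.2, 18.1, 24.1 and 43.3 CPM in KO mice, with WT replicates 1 and 2 far above WT replicates 3 and 4, and the change was -2.55 (standard error 0.54, adjusted p = 0.0129). *Slco1b2* fell by 0.43 (adjusted p = 0.0336, and up to 0.103 without WT replicate 3 or 4 or KO replicate 1, 2 or 3, which lost it). The main sodium-dependent carrier *Slc10a1* was at 638, 569, 627 and 836 CPM in WT mice and 314, 265, 351 and 613 CPM in KO mice. Its KO replicate 4 lay inside the WT range, and the change of -0.79 (standard error 0.24, adjusted p = 0.0546) missed the threshold. The bile salt export pump *Abcb11* was at -0.019 (standard error 0.11, adjusted p = 0.929) on the log2 scale and the phospholipid flippase *Abcb4* one of 0.21 (standard error 0.16, adjusted p = 0.413). Of this list, 4 genes fell without KO replicate 4, and 1 fell without WT replicate 3 or 4 or KO replicate 1, 2 or 3. With the replicate number as a block, *Slco1a1* and *Slco1b2* both lost their calls, and 2 other genes of the list fell.

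The nuclear receptors and regulators of this system held 4 genes that fell among 13 tested (of 14 listed), with a median of -0.21. *Nr1i3*, the constitutive androstane receptor CAR that drives detoxification genes, was at 52.7, 52.5, 73.3 and 61.6 CPM in WT mice and 33.3, 25.2, 15.5 and 27.7 CPM in KO mice, without overlap and with a change of -1.24 (standard error 0.21, adjusted p = 0.00509). *Nr1i3* overlaps *Tomm40l* on the other strand. *Nr1h4*, the bile acid receptor FXR, was at 113, 108, 95.4 and 120.2 CPM in WT mice and 69, 69.3, 83.4 and 91 CPM in KO mice, without overlap. *Nr0b2*, the FXR target SHP that represses *Cyp7a1*, was at 65.3, 53.3, 85.5 and 72.4 CPM in WT mice and 59.3, 39.1, 32.9 and 25.3 CPM in KO mice, with KO replicate 1 inside the WT range. Their changes of -0.48 (standard error 0.12, adjusted p = 0.0243) and -0.82 (standard error 0.24, adjusted p = 0.0448) were called in 4 and in 2 of the 8 fits without 1 mouse. The calls were lost without WT replicate 2 or 4 or KO replicate 1 or 2 for *Nr1h4* (adjusted p up to 0.0926), and without WT replicate 1, 3 or 4 or KO replicate 2, 3 or 4 for *Nr0b2* (up to 0.13). *Hnf4a*, a master regulator of hepatocyte genes, fell by 0.42 (adjusted p = 0.0295, lost without WT replicate 2, 3 or 4 or KO replicate 2 or 3, up to 0.103). With libraries scaled by totals alone these 3 calls were lost, and of the 4 falls 2 were left without WT replicate 2 or 3 or KO replicate 3 and 1 without WT replicate 4 or KO replicate 2.

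**Figure D3:**
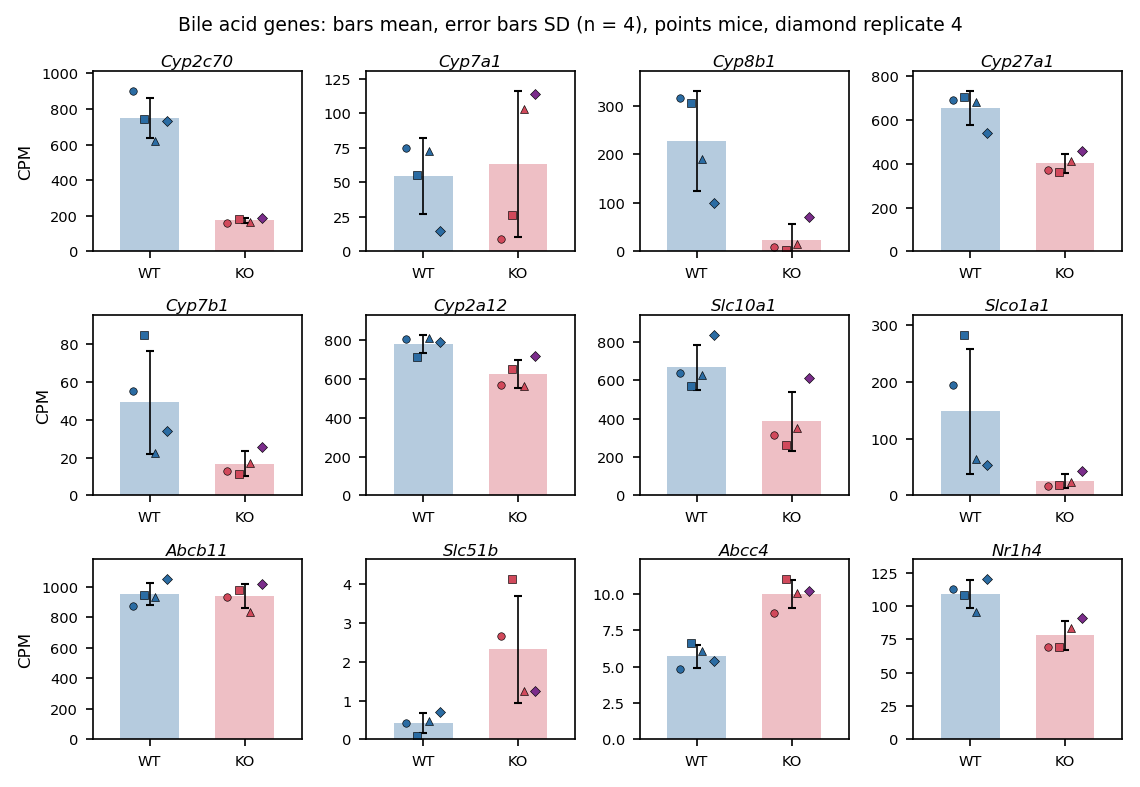
CPM of 12 genes of bile acid metabolism in each mouse, with bars for group means and error bars for SD (n = 4 mice a group), and a diamond for replicate 4 in both groups. *Cyp2c70* separates the groups at 623 to 900.3 CPM against 161 to 187 CPM, while *Cyp7a1* and *Abcb11* overlap.

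Among detoxifying cytochrome P450 enzymes 9 of 29 tested genes fell and 2 rose, with a median of -0.66. The largest called fall was that of *Cyp3a44* (-2.57), a call lost without WT replicate 1 or 2 or KO replicate 1 or 2 (its adjusted p of 0.0269 rose to up to 0.0826). Of the 9, 6 were close relatives of *Cyp2c70* in the Cyp2c family, with log2 fold changes from -2.27 to -0.76, and reads shared between such relatives could have been split by the counting. *Cyp3a11*, a major bile acid and drug hydroxylase and a target of the receptor PXR, was at 3286, 3523, 2962 and 2546 CPM in WT mice and 4912, 5199, 4493 and 3793 CPM in KO mice. It rose in KO livers without overlap, by 0.58 (standard error 0.14, adjusted p = 0.0238), a call lost without WT replicate 3 or 4 or KO replicate 2 (up to 0.0711). *Cyp2c55* was the other gene that rose (1.23, standard error 0.26, adjusted p = 0.0133). *Cyp2b10*, the standard CAR target, was at 75.8, 47.4, 37.7 and 35.8 CPM in WT mice and 30.3, 37.8, 31.8 and 76.7 CPM in KO mice, with KO replicate 4 alone high and no call (-0.16, standard error 0.32, adjusted p = 0.784). Without KO replicate 4, 16 genes of the list fell, and without WT replicate 1 or 2 or KO replicate 1 or 2, 4 fell. Of the 2 rises, 1 was left without WT replicate 3 or 4 or KO replicate 2.

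Conjugating enzymes add charged groups for export. Of 12 sulfotransferase genes, 5 fell (median -1.49). *Sult2a1*, a bile acid sulfotransferase typical of female mouse liver, was at 19.4, 7.57, 121 and 89.7 CPM in WT mice and 3.77, 2.58, 0.701 and 4.0 CPM in KO mice. Every KO mouse was below every WT mouse, although the WT mice themselves differed more than 10-fold, and the change was -4.43 (standard error 0.86, adjusted p = 0.00872). Its near relatives *Sult2a5*, *Sult2a2* and *Sult2a8* fell as well, and counts may be shared among them. The call of *Sult2a2* was lost without WT replicate 3 or 4 or KO replicate 1, 2 or 3 (adjusted p up to 0.0986), and that of *Sult2a8* without WT replicate 2 or 4 or KO replicate 1, 2 or 3 (up to 0.0784). Of 18 UDP-glucuronosyltransferase genes 4 fell (median -0.37), with *Ugt2b1* at -0.93 (standard error 0.26, adjusted p = 0.0393) and *Ugt1a1*, the bilirubin-conjugating enzyme, at -0.12 (standard error 0.13, adjusted p = 0.566). The call of *Ugt2b1* was lost without WT replicate 1, 2 or 4 or KO replicate 1 or 2 (adjusted p up to 0.117). Among 21 tested glutathione S-transferase genes (of 22 listed), 4 rose and 1 fell. *Gsta1*, an alpha-class enzyme, rose by 1.57 (standard error 0.43, adjusted p = 0.0341), lost without WT replicate 2 or 3 or KO replicate 2 or 3 (up to 0.0838), and the abundant *Gstm1* was at 0.033 (standard error 0.15, adjusted p = 0.908). Of 18 tested NRF2 targets and antioxidant genes (of 20 listed), *G6pdx* (0.95, standard error 0.12, adjusted p = 0.00178) and *Hmox1* (0.49, standard error 0.11, adjusted p = 0.0173, lost without WT replicate 2, adjusted p 0.0563) rose. With libraries scaled by totals alone 5 genes of that list rose, and 4 in the fit over all female groups. Counts here moved when 1 mouse was left out. Without KO replicate 4, 8 UDP-glucuronosyltransferases and 6 glutathione S-transferases fell, and without WT replicate 2 or KO replicate 1 or 2, 2 UDP-glucuronosyltransferases did. Sulfotransferases falling numbered 3 without WT replicate 4 or KO replicate 1, 2 or 3. The 4 rises of glutathione S-transferases went to 1 without WT replicate 2 or 3 or KO replicate 2 or 3 and to 2 without WT replicate 4. Their 1 fall was lost in each of the 8 fits without 1 mouse, and the 6 falls without KO replicate 4 are other genes.

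The calls in cholesterol synthesis moved with KO replicate 4 and with the libraries fitted. All 25 genes of the list had negative log2 fold changes, with a median of -0.82, yet 1 of 25 fell by the test, while 14 had an unadjusted p under 0.05. *Hmgcs1*, the enzyme that feeds the pathway, was at 404, 554, 990.0 and 244 CPM in WT mice and 141, 237, 210.4 and 497 CPM in KO mice. *Sqle*, the squalene epoxidase, was at 106, 141, 234 and 69.8 CPM in WT mice and 25.3, 43.3, 33.6 and 111 CPM in KO mice. KO replicates 1 to 3 were below every WT mouse, whereas KO replicate 4 lay inside the WT range for both, and the changes of -1.01 (standard error 0.45, adjusted p = 0.158) and -1.37 (standard error 0.48, adjusted p = 0.0825) were not called. The gene that fell was *Hsd17b7*, of the later steps (-1.42, standard error 0.41, adjusted p = 0.0419). Without KO replicate 4, 23 of the 25 genes fell and the median was -1.35. With KO replicate 4 kept, 12 fell in the fit over the 16 libraries of all female groups. Without WT replicate 4, 4 genes fell, as they did with no filter on low counts, and without WT replicate 2 or 3 or KO replicate 1, 2 or 3 the call of *Hsd17b7* was lost (adjusted p up to 0.12).

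In fatty acid and triglyceride synthesis 3 of 19 tested genes fell (of 20 listed), with a median of -0.40, and 13 fell without KO replicate 4. *Fasn*, the fatty acid synthase, was at 674, 707, 921 and 729 CPM in WT mice and 303, 408, 336 and 1212 CPM in KO mice, where KO replicates 1 to 3 were below every WT mouse and KO replicate 4 above every WT mouse. The change was -0.42 (standard error 0.40, adjusted p = 0.504). *Lpin1*, a phosphatidate phosphatase, had the largest called fall (-1.61, standard error 0.48, adjusted p = 0.048), lost without WT replicate 2 or 3 or KO replicate 1, 2 or 3 (up to 0.137). The number of genes that fell was 1 without WT replicate 2, 3 or 4. Without KO replicate 1, 2 or 3, or with libraries scaled by totals alone, 0 fell by edgeR, and with all mice 7 genes had an unadjusted p under 0.05 and DESeq2 called 5 lower.

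Fatty acid oxidation and other targets of the receptor PPARalpha fell in part. Of 26 genes 13 fell, 25 had negative log2 fold changes, and the median was -0.48. *Cyp4a14*, a microsomal omega-hydroxylase and PPARalpha target, was at 875, 1443, 2464 and 1301 CPM in WT mice and 385, 308, 319 and 522 CPM in KO mice, without overlap and with a change of -1.99 (standard error 0.30, adjusted p = 0.00308). *Cpt1a*, the gate of mitochondrial uptake (-0.39, standard error 0.16, adjusted p = 0.127), did not pass. The count was 8 without WT replicate 3, 3 without KO replicate 2 and 6 with libraries scaled by totals alone. Of 24 genes of oxidative phosphorylation, 0 were called by edgeR, although all 24 had negative log2 fold changes (median -0.22), 8 had an unadjusted p under 0.05, DESeq2 called 3 lower, and 4 fell without KO replicate 4.

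Of 17 genes of glucose metabolism 3 fell and 1 rose. *Ppp1r3b*, which targets protein phosphatase 1 to glycogen, fell by 1.58 and *Pfkfb1*, a kinase that sets the rate of glycolysis, by 1.19 (lost without KO replicate 2, adjusted p 0.0584), while *Hk2*, a hexokinase of extrahepatic tissues and injured liver, rose by 1.26. *Pck1* (-0.22, standard error 0.21, adjusted p = 0.499) and *G6pc* (-0.027, standard error 0.18, adjusted p = 0.938) of gluconeogenesis did not pass. *Plin2*, the main coat protein of hepatocyte lipid droplets, was at 502, 505, 653 and 579.8 CPM in WT mice and 334, 323, 326 and 328 CPM in KO mice. The KO mice lay between 323 and 334 CPM, below every WT mouse, a change of -0.77 (standard error 0.11, adjusted p = 0.00251). *G0s2*, an inhibitor of triglyceride lipase, fell by 2.07 and *Plin5* by 0.97, 3 of 16 tested genes of that list (of 17 listed) in all and 5 without KO replicate 4. Of 21 genes of lipoproteins, 6 fell, with *Apoa1*, the main HDL protein, at -1.05 (standard error 0.24, adjusted p = 0.0179) and *Angptl4*, an inhibitor of lipoprotein lipase, at -1.56 (standard error 0.27, adjusted p = 0.00592). *Lpl*, lipoprotein lipase itself and in liver largely a macrophage gene, was at 31.3, 25.2, 29.2 and 28.6 CPM in WT mice and 129, 182, 113 and 45.9 CPM in KO mice, without overlap, a rise of 2.04 (standard error 0.33, adjusted p = 0.00409). The call of *Apoa1* was lost without KO replicate 2 (adjusted p 0.0618), where 1 of the 6 lipoprotein genes fell, and 3 fell with libraries scaled by totals alone while 2 rose without KO replicate 4.

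Markers of cholangiocytes and ductular cells, the epithelium of the bile ducts, rose in KO livers. Of 20 tested genes (of 22 listed) 16 rose, 14 of them more than 2-fold, with a median of 1.83. *Prom1*, a stem and progenitor cell membrane protein of reactive ductules, was at 3.83, 2.49, 3.15 and 3.21 CPM in WT mice and 49.7, 75.4, 41.1 and 28.6 CPM in KO mice. The lowest KO mouse was several times above the highest WT mouse, and the change was 3.94 (standard error 0.29, adjusted p = 0.00027). *Krt19*, a duct keratin, was at 2.19, 2.09, 2.3 and 1.26 CPM in WT mice and 5.04, 8.63, 5.29 and 3.94 CPM in KO mice, and *Epcam*, an adhesion protein of biliary epithelium, at 1.36, 1.87, 3.83 and 1.74 CPM in WT mice and 6.28, 9.82, 9.13 and 4.54 CPM in KO mice. Neither overlapped, with changes of 1.55 (standard error 0.27, adjusted p = 0.00617) and 1.76 (standard error 0.34, adjusted p = 0.00907). *Cftr*, the chloride channel of bile ducts, was at 0.0555, 0.199, 0.284 and 0.0758 CPM in WT mice and 1.01, 1.08, 1.81 and 0.309 CPM in KO mice, a change of 2.75 (standard error 0.60, adjusted p = 0.0139). *Spp1*, osteopontin, also made by macrophages, was at 28.6, 31.8, 58.5 and 34.4 CPM in WT mice and 154, 268, 264 and 124 CPM in KO mice, a change of 2.4 (standard error 0.31, adjusted p = 0.00198). *Sox9*, the transcription factor of ducts and of hepatocytes in transition, was at 4.72, 7.27, 7.39 and 4.45 CPM in WT mice and 14.2, 12.1, 22.3 and 5.34 CPM in KO mice. Here KO replicate 4 lay inside the WT range, and the change of 1.18 (standard error 0.36, adjusted p = 0.0543) missed the threshold, as did *Krt7* (1.03, standard error 0.32, adjusted p = 0.0544) and *Krt23* (1.31, standard error 0.67, adjusted p = 0.215). The summed CPM of the list ran from 130.5 to 181 in WT mice and from 286 to 550.5 in KO mice.

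Epithelial genes of injury, which hold keratins, annexins, squamous and mucosal genes and fetal liver genes, rose in 16 of 23 tested members (of 33 listed, the other 10 with too few counts), with a median of 1.02. Genes nearly absent in WT mice could be tested on their KO mice alone, so this share is not free of the filter. *Sprr1a*, a squamous cell envelope protein, was at 0, 0.0249, 0.181 and 0.202 CPM in WT mice and 6.2, 14.1, 4.14 and 1.31 CPM in KO mice, a change of 5.93 (standard error 0.88, adjusted p = 0.00292). *Cd44*, the hyaluronan receptor, was at 10.1, 9.66, 9.62 and 10.3 CPM in WT mice and 18.9, 26.4, 23.8 and 16.5 CPM in KO mice, without overlap and at 1.11 (standard error 0.15, adjusted p = 0.00216). *H19*, a fetal noncoding RNA, had the largest log2 fold change of the list (6.48, standard error 1.24, adjusted p = 0.0085), but its values were 0.389, 0, 0.336 and 0.531 CPM in WT mice and 11.8, 49.9, 49.6 and 0.49 CPM in KO mice. KO replicate 4 thus lay with the WT mice for *H19*. *Afp*, the fetal albumin, did not pass the test (0.27, standard error 0.21, adjusted p = 0.42). *Cdh1*, E-cadherin, carried here among periportal genes, was at 40.4, 50.3, 52.6 and 48.5 CPM in WT mice and 156, 153, 134 and 90.9 CPM in KO mice, a change of 1.48 (standard error 0.17, adjusted p = 0.00159).

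**Figure D4:**
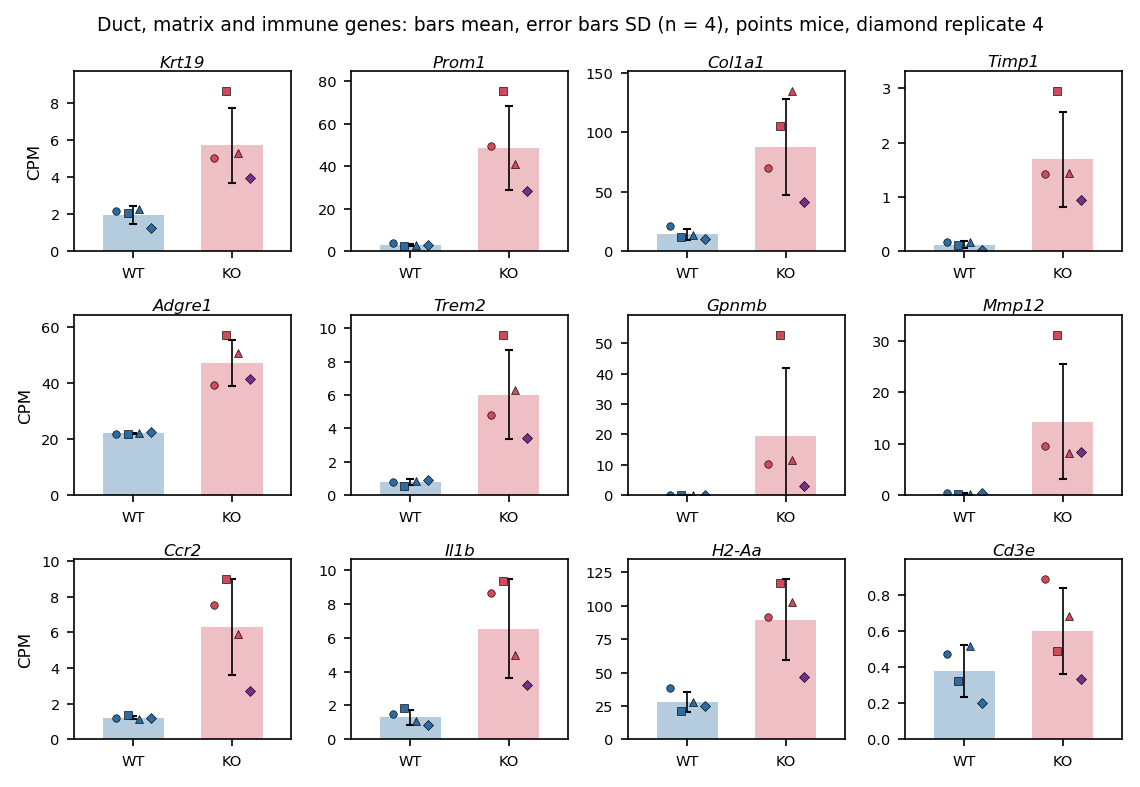
CPM of 12 duct, matrix and immune genes in each mouse, with bars for group means and error bars for SD (n = 4 mice a group), and a diamond for replicate 4 in both groups. The groups do not overlap in 11 of the genes and overlap in *Cd3e*, against 20.9% of all genes tested without overlap. The genes were picked for display, *Gpnmb* and *Mmp12* among them from a ranking that required groups without overlap. KO replicate 4 is the lowest KO mouse in most of the 12.

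The extracellular matrix is the scaffold that scars are made of. Of 28 collagens and structural matrix genes 21 rose, with a median of 1.01. *Col1a1*, the main fibrillar collagen of scars, was at 21, 12.5, 13.8 and 10.6 CPM in WT mice and 70.00, 105, 135 and 41.9 CPM in KO mice, and *Col3a1* at 65.7, 41.9, 49.3 and 44.9 CPM in WT mice and 146, 278, 372 and 112 CPM in KO mice. Neither overlapped, with changes of 2.6 (standard error 0.35, adjusted p = 0.00216) and 2.17 (standard error 0.35, adjusted p = 0.00409), and in both KO replicate 3 was highest and KO replicate 4 lowest of the KO mice. *Lum*, a collagen-binding proteoglycan, rose by 1.52, and *Eln*, elastin, by 1.14, the latter lost without WT replicate 2, 3 or 4 or KO replicate 1, 2 or 3 (adjusted p up to 0.1). *Col15a1*, a basement membrane collagen, did not pass (0.38, standard error 0.22, adjusted p = 0.284). The count of 21 was 12 without KO replicate 2.

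Of 21 tested matrix proteases, inhibitors and crosslinking enzymes (of 23 listed) 13 rose, with a median of 1.07. *Mmp12*, the macrophage elastase, was at 0.389, 0.274, 0.233 and 0.404 CPM in WT mice and 9.55, 31, 8.22 and 8.35 CPM in KO mice, with KO replicate 2 far above the rest and a change of 5.45 (standard error 0.54, adjusted p = 0.00131). *Mmp13*, the rodent interstitial collagenase, was at 0.0555, 0.174, 0.155 and 0.152 CPM in WT mice and 1.11, 3.93, 4.63 and 1.73 CPM in KO mice, a change of 4.37 (standard error 0.55, adjusted p = 0.00191). *Timp1*, their inhibitor, was at 0.167, 0.125, 0.181 and 0.0253 CPM in WT mice and 1.42, 2.95, 1.44 and 0.954 CPM in KO mice, a change of 3.75 (standard error 0.51, adjusted p = 0.0023), and it lies inside *Syn1* on the other strand, which had a log2 fold change of 0.85 and no call. *Lox*, the collagen crosslinking enzyme, rose by 2.0, a call lost without KO replicate 2 or 3 (adjusted p up to 0.0589).

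Of 20 TGF-beta and PDGF signalling genes 10 rose (median 0.58), among them *Tgfb1* (0.41, standard error 0.10, adjusted p = 0.0263) and *Pdgfb* (1.03, standard error 0.26, adjusted p = 0.0238). Their calls were lost without WT replicate 2, 3 or 4 or KO replicate 2 or 3 for *Tgfb1* (up to 0.0763) and without WT replicate 1, 3 or 4 or KO replicate 2 or 3 for *Pdgfb* (up to 0.0764). The target *Ctgf* was not called (0.075, standard error 0.42, adjusted p = 0.927). The count of 10 went to 6 without WT replicate 1, to 5 without WT replicate 2 or 3, and to 3 without WT replicate 4 or KO replicate 2 or 3.

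Markers of stellate cells and myofibroblasts, the cells that lay down matrix, were called in 5 of 14 cases. Of the 14 genes 4 rose and 1 fell, with a median of 0.26. *Pdgfrb*, the PDGF receptor of stellate cells, was at 13.8, 10.7, 12 and 15.6 CPM in WT mice and 31.3, 36.6, 38.4 and 19.2 CPM in KO mice, without overlap, a rise of 1.27 (standard error 0.21, adjusted p = 0.00441). *Acta2*, smooth muscle actin and the usual marker of myofibroblasts, was at 10.2, 6.2, 1.78 and 2.22 CPM in WT mice and 0.947, 2.21, 3.87 and 3.89 CPM in KO mice. WT replicate 1 was the highest of all 8 mice, the groups overlapped, and the change was -0.91 (standard error 0.58, adjusted p = 0.317). *Des* (-0.077, standard error 0.17, adjusted p = 0.799) and *Lrat* (0.38, standard error 0.38, adjusted p = 0.535) of quiescent stellate cells did not pass. The summed CPM of the list, 397 to 558 in WT and 416 to 585 in KO mice, overlapped. Without WT replicate 2 or 3 or KO replicate 2 or 3, 2 genes rose.

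Macrophage genes rose in 13 of 15 members, with a median of 1.1. *Adgre1*, which encodes F4/80, was at 21.8, 22, 22.2 and 22.5 CPM in WT mice and 39.4, 57.2, 50.9 and 41.7 CPM in KO mice. The WT mice lay within 1 CPM of each other and the groups did not overlap, with a change of 1.1 (standard error 0.12, adjusted p = 0.00144). *Cd68* (1.25, standard error 0.17, adjusted p = 0.00226) and *Csf1r* (0.84, standard error 0.13, adjusted p = 0.00409) rose as well, while *Mrc1* was at -0.089 (standard error 0.15, adjusted p = 0.733). The summed CPM went from 462 to 553 in WT mice to 807 to 1241 in KO mice.

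Markers of resident Kupffer cells moved in both directions, with 4 of 10 rising, 1 falling and a median of 0.47. *Marco*, a scavenger receptor, was at 9.89, 6.25, 6.54 and 4.32 CPM in WT mice and 20.2, 23.2, 11.1 and 21 CPM in KO mice, a rise of 1.48 (standard error 0.27, adjusted p = 0.00729), and *Cd5l* rose by 0.85. *Cd163*, the haemoglobin scavenger receptor, was at 18.5, 25.9, 35.3 and 23.9 CPM in WT mice and 2.08, 5.67, 7.14 and 10.9 CPM in KO mice. It fell without overlap by 2.01 (adjusted p = 0.00949), and was the only gene of the list to fall. The defining marker *Clec4f* was at 151, 128, 135 and 131 CPM in WT mice and 131, 181, 201 and 185 CPM in KO mice, and it (0.36, standard error 0.14, adjusted p = 0.104) and *Timd4* (0.23, standard error 0.15, adjusted p = 0.336) overlapped and did not pass. *Vsig4* rose by 0.58 (adjusted p = 0.0211), lost without WT replicate 2 or KO replicate 2 or 3 (up to 0.0643).

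Genes of lipid-associated macrophages, which form around dying fat-laden cells and in scars, rose in 9 of 13 members and fell in 1, with the highest median of all lists (2.04). *Trem2*, the lipid-sensing receptor that defines them, was at 0.805, 0.548, 0.879 and 0.935 CPM in WT mice and 4.8, 9.58, 6.33 and 3.4 CPM in KO mice, a change of 2.93 (standard error 0.33, adjusted p = 0.00155). *Cd9* rose by 1.63, and the others that rose include *Gpnmb*, *Mmp12*, *Spp1* and *Lpl* above. The gene that fell was *Plin2*, which hepatocytes also make. By gene, each of the 9 rises and the 1 fall was called in all 8 fits without 1 mouse.

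Of 22 listed monocyte and neutrophil genes, 8 had enough counts to test, and a gene could pass that filter on its KO mice alone. *Ccr2*, the chemokine receptor of recruited monocytes, was at 1.19, 1.34, 1.14 and 1.21 CPM in WT mice and 7.56, 8.98, 5.93 and 2.73 CPM in KO mice, a change of 2.36 (standard error 0.32, adjusted p = 0.0023). *S100a8* rose by 2.01 (standard error 0.34, adjusted p = 0.00518), and *Ly6c2*, of inflammatory monocytes, by 1.69 (standard error 0.38, adjusted p = 0.0168), the last lost without KO replicate 2 (adjusted p 0.0502). Summed CPM of the 22 genes was 26 to 31.8 in WT and 46.3 to 86.5 in KO mice. Without KO replicate 2, 5 of the 8 rose.

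Receptors that signal through ITAM motifs, Fc receptors and pattern recognition receptors rose in 18 of 21 members, 17 of them more than 2-fold (median 1.3). The adaptors *Fcer1g* and *Tyrobp* rose by 1.07 and 0.99, the beta-glucan receptor *Clec7a* by 2.51 (standard error 0.32, adjusted p = 0.00202), and *Tlr2* by 1.44 (standard error 0.22, adjusted p = 0.00351). *Fcgr2b*, the inhibitory Fc receptor that liver sinusoidal endothelium also makes, was at -0.037 (standard error 0.11, adjusted p = 0.851). Chemokines and their receptors rose in 15 of 22 tested members (of 33 listed) and fell in 1, and a gene could be tested on its KO mice alone. *Ccl2*, the ligand of Ccr2, was at 1.33, 0.623, 0.672 and 0.581 CPM in WT mice and 2.9, 2.58, 2.21 and 1.03 CPM in KO mice, without call when WT replicate 2, 3 or 4 or KO replicate 1, 2 or 3 was left out (adjusted p up to 0.0785, 0.0276 with all mice). *Cxcl1*, a neutrophil chemokine, rose by 1.66 (standard error 0.30, adjusted p = 0.00641), *Cxcl10* by 1.05 (standard error 0.21, adjusted p = 0.0103) and *Ccl5* by 1.73 (standard error 0.39, adjusted p = 0.0164), the last lost without KO replicate 2 (0.0536). *Ccl22*, a dendritic cell chemokine, had the largest rise, with 0.278, 0.149, 0.284 and 0.0758 CPM in WT mice and 5.27, 3.7, 1.74 and 0.49 CPM in KO mice and 3.83 (standard error 0.70, adjusted p = 0.00729). The fall was that of *Cxcl13* (-0.94, adjusted p = 0.044), which was called only without KO replicate 4 among the 8 fits that left out a mouse (up to 0.121). *Ccl24* did not pass (0.10, standard error 0.33, adjusted p = 0.873).

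Of 26 tested genes of IL-1 and TNF signalling and adhesion (of 29 listed) 13 rose, with a median of 0.60. *Il1b*, the secreted cytokine, was at 1.47, 1.84, 1.06 and 0.834 CPM in WT mice and 8.61, 9.31, 4.97 and 3.22 CPM in KO mice, a change of 2.33 (standard error 0.37, adjusted p = 0.00387), and its antagonist *Il1rn* rose by 2.2. The adhesion molecules *Vcam1* and *Icam1* rose by 1.57 and 0.87, and *Relb* and *Nfkb2* of the noncanonical NF-kappaB pathway by 1.36 and 1.03. *Nfkbia* (-0.23, standard error 0.17, adjusted p = 0.387) and *Tnfrsf12a* (0.23, standard error 0.29, adjusted p = 0.622) did not pass.

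Interferon-stimulated genes rose in 22 of 35 members, with a median of 0.75. *Oas1a*, an antiviral oligoadenylate synthetase, had the largest rise, with 4.67, 4.08, 3.98 and 2.98 CPM in WT mice and 9.94, 14, 15.4 and 8.38 CPM in KO mice and 1.6 (standard error 0.22, adjusted p = 0.00219). *Irf7*, the transcription factor of the interferon response, was at 41.1, 29.7, 32.3 and 25.5 CPM in WT mice and 68.7, 77.4, 85.2 and 45.1 CPM in KO mice, and *Ifit1*, an antiviral RNA-binding protein, at 10.4, 8.72, 10.6 and 8.79 CPM in WT mice and 13.2, 22.2, 22 and 15.9 CPM in KO mice. Neither overlapped, with changes of 1.1 (standard error 0.20, adjusted p = 0.00693) and 0.93 (standard error 0.17, adjusted p = 0.00774), while *Isg15* (0.68, standard error 0.23, adjusted p = 0.0784) and *Iigp1* (0.22, standard error 0.16, adjusted p = 0.37) did not pass. *Irf7* shares its locus with *Phrf1* on the other strand. Promoters of *Ifit1* and *Oas1a* are shown to make visible the element by which interferon is known to act. They are from RefSeq (GRCm38.p6), 200 bases before the start of the gene, 5′ to 3′ on the strand of the gene (*Ifit1* chr19:34640689-34640888 plus, *Oas1a* chr5:120907526-120907725 minus), and capitals mark 2 GAAA blocks with any 2 bases between them, on either strand.
Ifit1: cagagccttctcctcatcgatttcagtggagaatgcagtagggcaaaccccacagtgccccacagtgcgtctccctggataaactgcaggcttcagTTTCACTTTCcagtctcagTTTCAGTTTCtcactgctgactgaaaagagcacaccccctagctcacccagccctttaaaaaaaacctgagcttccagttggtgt
Oas1a: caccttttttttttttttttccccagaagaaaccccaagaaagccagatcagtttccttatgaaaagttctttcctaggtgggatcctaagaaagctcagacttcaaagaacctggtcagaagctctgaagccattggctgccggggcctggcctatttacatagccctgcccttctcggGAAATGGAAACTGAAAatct

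Searched on both strands in the 250 bases before the start, this motif was found in 13 of the 25 interferon-stimulated genes with a promoter in the table, and in 2.98% of 32851 promoters of all genes. Of the genes with it, 8 of 13 rose, and of those without it, 7 of 12.

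Antigen presentation and dendritic cell genes rose in 13 of 17 members, all 13 more than 2-fold (median 1.52). *H2-Aa*, the alpha chain of an MHC class II molecule, was at 38.7, 21.3, 27.8 and 25.2 CPM in WT mice and 91.9, 117, 103 and 47 CPM in KO mice, a change of 1.67 (standard error 0.27, adjusted p = 0.0043). *Cd74*, the invariant chain, was at 140.5, 75.6, 88.9 and 83.8 CPM in WT mice and 276, 351, 317 and 134 CPM in KO mice, a change of 1.47 (standard error 0.29, adjusted p = 0.00929), and *Ciita*, the master activator of class II genes, rose by 1.86 (standard error 0.26, adjusted p = 0.00232). KO replicate 4 was the lowest KO mouse for all 3, and for *Cd74* it lay below WT replicate 1. *Itgax*, CD11c, had the largest rise (3.11), and *Clec9a* of cross-presenting dendritic cells did not pass (0.61, standard error 0.19, adjusted p = 0.0611). The conserved Y box of class II promoters is in capitals in the promoters of *H2-Aa* and *H2-Eb1*, from the same table and of the same length (*H2-Aa* chr17:34287824-34288023 minus, *H2-Eb1* chr17:34305667-34305866 plus).
H2-Aa: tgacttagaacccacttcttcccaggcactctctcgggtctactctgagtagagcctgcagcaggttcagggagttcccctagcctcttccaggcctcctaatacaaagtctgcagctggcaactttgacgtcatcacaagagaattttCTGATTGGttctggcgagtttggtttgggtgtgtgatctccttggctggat
H2-Eb1: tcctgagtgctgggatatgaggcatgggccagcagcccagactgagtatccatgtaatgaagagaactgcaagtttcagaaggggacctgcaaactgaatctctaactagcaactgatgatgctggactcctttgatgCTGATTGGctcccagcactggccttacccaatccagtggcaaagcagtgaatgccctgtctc

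The letters CTGATTGG on either strand were found in 3 of 13 genes of this list with a promoter in the table, *H2-Aa*, *H2-Eb1* and *H2-Oa*, and in 3.83% of all promoters. All 3 rose, as did 6 of the 10 without these letters. The call of *H2-Oa* (adjusted p = 0.0396) was lost without any WT mouse and without KO replicate 1 or 3 (up to 0.111). When genes under a mean of 50 counts were left out, 8 genes of the list rose.

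Of 18 tested T and NK cell genes (of 20 listed) 2 rose, and the median was 0.74. *Cd8a*, the coreceptor of cytotoxic T cells, rose by 2.34 (standard error 0.45, adjusted p = 0.0085), while *Cd3e*, part of the T cell receptor complex, was at 0.472, 0.324, 0.517 and 0.202 CPM in WT mice and 0.885, 0.491, 0.68 and 0.335 CPM in KO mice and overlapped (0.67, standard error 0.39, adjusted p = 0.281). *Cd4* (1.03, standard error 0.32, adjusted p = 0.0549) and *Nkg7* (1.16, standard error 0.37, adjusted p = 0.0624) did not pass. Without WT replicate 1 or KO replicate 4, 4 genes rose, and when genes under a mean of 50 counts were left out 0 rose by edgeR, while 7 had an unadjusted p under 0.05 with all genes and DESeq2 called 4 higher. Of 10 tested B and plasma cell genes (of 11 listed) *Cd22* alone rose, by 1.61 (standard error 0.22, adjusted p = 0.00233), joined by 1 other gene without WT replicate 1. The B cell receptor component *Cd79a* was at 0.61 (standard error 0.47, adjusted p = 0.412). The summed CPM was 7.3 to 11.5 in WT and 9.77 to 18.9 in KO mice for T and NK cells, and 7.75 to 12.9 and 12.9 to 25.7 for B and plasma cells.

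Markers of other cell types that liver tissue can hold gave few calls. Among 13 endothelial markers *Cd34* rose (1.63, standard error 0.22, adjusted p = 0.00226), while *Pecam1* (-0.0055, standard error 0.09, adjusted p = 0.978) and *Stab2* (-0.20, standard error 0.12, adjusted p = 0.315) did not pass. Of 6 mesothelial genes *Upk3b* fell (-1.24, standard error 0.35, adjusted p = 0.0418), a call lost without WT replicate 1, 2 or 3 or KO replicate 1 or 2 (adjusted p up to 0.105). Among 5 tested erythroid genes 0 were called by edgeR and 0 by DESeq2, and 0 had an unadjusted p under 0.05. Pancreatic acinar and skeletal muscle lists had 1 tested gene each, *Cela2a* (-0.41, standard error 0.40, adjusted p = 0.522) and *Mylpf* (0.070, standard error 0.31, adjusted p = 0.906), and their summed CPM stayed at or under 3.78 in every mouse.

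Of 23 acute phase genes 5 rose, each more than 2-fold (median 0.19). *Lcn2*, lipocalin 2, a siderophore-binding protein of stressed hepatocytes and neutrophils, was at 8.58, 5.7, 16.3 and 5.64 CPM in WT mice and 56.9, 141, 55.3 and 22.9 CPM in KO mice, a change of 2.93 (standard error 0.54, adjusted p = 0.00707). *Saa1*, serum amyloid A1, was at 29.1, 15, 30.1 and 22.6 CPM in WT mice and 75.8, 144, 36.9 and 114 CPM in KO mice, a change of 1.94 (standard error 0.37, adjusted p = 0.0087). Its near-identical neighbour *Saa2* and the orosomucoids *Orm2* and *Orm3* made up the rest, families whose reads may be shared, and *Orm2* (adjusted p = 0.0347) lost its call without WT replicate 2, 3 or 4 or KO replicate 2 or 3 (up to 0.0978). *Saa3* (0.41, standard error 0.40, adjusted p = 0.522) did not pass. Among 19 genes of ER and integrated stress, 1 rose and 3 fell. *Atf3*, a stress-induced transcription factor, rose by 1.96 (standard error 0.41, adjusted p = 0.0116), and *Herpud1*, of ER-associated degradation, was at 459, 503, 835 and 437 CPM in WT mice and 166, 143, 219 and 228 CPM in KO mice, a fall without overlap (-1.56, standard error 0.23, adjusted p = 0.00292). *Hspa5*, the ER chaperone BiP, was at -0.16 (standard error 0.32, adjusted p = 0.772), and *Trib3* and *Gdf15* of the integrated stress response were at -0.018 and -0.56 without call. Of the 3 falls, 1 was left without KO replicate 2.

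In several processes no gene was called by edgeR at the adjusted threshold. Of 32 cell cycle genes 1 had an unadjusted p under 0.05 and DESeq2 called 0. The proliferation marker *Mki67* was at 0.36 (standard error 0.54, adjusted p = 0.69), at a list median of -0.047 that turned positive with libraries scaled by totals alone, without genes under a mean of 50 counts, and without WT replicate 1 or 2 or KO replicate 1 or 2. Of 16 genes of iron metabolism 5 had an unadjusted p under 0.05 and DESeq2 called 4 lower, with hepcidin *Hamp* at -0.089 (standard error 0.17, adjusted p = 0.771). Of 19 clock genes 3 had an unadjusted p under 0.05 and DESeq2 called 1 lower. *Dbp*, a clock output that swings widely over the day, was at 4.28, 1.54, 7.52 and 61.2 CPM in WT mice and 10.2, 15, 4.82 and 46.4 CPM in KO mice, so replicate 4 of both groups was far above the other mice. It overlaps *Sphk2* on the other strand, which has more counts. The part of this in the position of KO replicate 4 was not tested. Leaving out 1 mouse gave at most 1 call in the iron list and in the clock list.

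Hepatocyte markers fell in 6 of 16 members (median -0.26). *Alb*, albumin, was at 102291, 87699.6, 94482 and 76974 CPM in WT mice and 40678, 45438, 57258 and 61459.6 CPM in KO mice, without overlap and with a change of -0.82 (standard error 0.17, adjusted p = 0.0125). *Fabp1*, the liver fatty acid binding protein, was at 2660.1, 2460.0, 3534 and 2893 CPM in WT mice and 890.4, 736, 1057 and 1531 CPM in KO mice, a change of -1.45 (standard error 0.22, adjusted p = 0.00313). Transthyretin *Ttr* fell by 0.61 (adjusted p = 0.0273), lost without WT replicate 1, 2 or 3 or KO replicate 1, 2 or 3 (up to 0.0887), and *Tat* did not pass (-0.16, standard error 0.26, adjusted p = 0.726). The summed CPM of the list was 113032 to 144054 in WT and 70898 to 96403 in KO mice. The count of 6 was 2 or 3 without WT replicate 1, 2 or 3 or KO replicate 1, 2 or 3, and 3 with libraries scaled by totals alone.

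Hepatocytes of a lobule express different genes near the central vein and near the portal vein. Of 16 pericentral genes 9 fell, with a median of -0.67, and all 16 had negative log2 fold changes. *Glul*, glutamine synthetase of the innermost hepatocytes, was at 1426, 1689.5, 1769 and 1426 CPM in WT mice and 792, 726, 823 and 1091 CPM in KO mice, without overlap and with a change of -0.88 (standard error 0.15, adjusted p = 0.00501). *Cyp2e1* (-0.66, standard error 0.13, adjusted p = 0.00921), the Wnt target *Lgr5* (-0.70, standard error 0.15, adjusted p = 0.014) and the transcription factor *Tbx3* (-1.06, standard error 0.19, adjusted p = 0.00639) fell too, and *Oat* did not pass (-0.031, standard error 0.26, adjusted p = 0.951). The call of *Lgr5* was lost without KO replicate 2 (adjusted p 0.0541), where 4 genes of the list fell. Of 16 periportal genes 3 rose (median 0.13). These were *Cdh1*, *Hal*, the histidine ammonia lyase (0.61, standard error 0.14, adjusted p = 0.017), and *Cps1*, the entry enzyme of the urea cycle, which was at 4371, 3745, 3751 and 4019.5 CPM in WT mice and 5029.7, 5276, 5912 and 6793 CPM in KO mice (0.53, standard error 0.13, adjusted p = 0.021). Without WT replicate 2, *Hal* and *Cps1* lost their calls (up to 0.0553 and 0.07), and *Cps1* also did without WT replicate 3. Of the 3 rises 1 was left without WT replicate 2, and 5 were called with libraries scaled by totals alone. *Ass1* (0.72, standard error 0.23, adjusted p = 0.0644), *Sds* (0.15, standard error 0.20, adjusted p = 0.66) and *Cyp2f2* (0.051, standard error 0.11, adjusted p = 0.789) did not pass. Among 15 tested retinoid genes (of 16 listed) *Dhrs9*, a retinol dehydrogenase, was at 2.14, 5.83, 3.98 and 7.13 CPM in WT mice and 49.6, 40.8, 21.5 and 21 CPM in KO mice, a rise of 2.8 (standard error 0.39, adjusted p = 0.00241), and *Cyp26a1* (-1.58, standard error 0.95, adjusted p = 0.29) was not called. In that list 2 genes rose and 1 fell. The fall was lost without WT replicate 1, 2 or 3, without KO replicate 1, 2 or 3 and with libraries scaled by totals alone, 3 fell without KO replicate 4, and 1 rose when genes under a mean of 50 counts were left out.

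Genes with sex-dependent expression in mouse liver, set by the pattern of growth hormone release, varied widely within the WT mice. Among 20 female-biased genes 1 rose and 3 fell (median -1.5), and without KO replicate 4, 12 fell. *A1bg*, a plasma glycoprotein, was at 456, 462, 30.9 and 24.6 CPM in WT mice and 16.1, 31.9, 194 and 89.6 CPM in KO mice, and the P450 gene *Cyp3a41a* at 129.9, 127, 32.6 and 5.1 CPM in WT mice and 1.52, 1.86, 8.79 and 18.6 CPM in KO mice. WT replicates 1 and 2 were far above WT replicates 3 and 4 for both, and neither was called, at -1.55 (standard error 1.01, adjusted p = 0.328) and -3.27 (standard error 1.01, adjusted p = 0.0551). *Ntrk2*, the BDNF receptor, was the gene that rose, at 5.75, 5.83, 8.37 and 1.31 CPM in WT mice and 33.3, 77.3, 95.9 and 37 CPM in KO mice (3.52, standard error 0.52, adjusted p = 0.00292). Falls numbered 1 without WT replicate 1 or 3 or KO replicate 1 and 5 with libraries scaled by totals alone, and 2 genes rose without KO replicate 3. Without KO replicate 2, 0 fell by edgeR, while 11 genes had an unadjusted p under 0.05 with all mice and DESeq2 called 6 lower.

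Among 13 male-biased genes 2 rose, each more than 2-fold, and 6 fell, 5 of them more than 2-fold. The log2 fold changes of the list ran from -5.30 to 4.26, with a median of -0.93. *Elovl3*, a fatty acid elongase, was at 9.75, 16.2, 11.5 and 8.06 CPM in WT mice and 0.165, 0.205, 0.573 and 1.6 CPM in KO mice, without overlap and with a change of -4.21 (standard error 0.58, adjusted p = 0.0023). *Hsd3b5*, a steroid dehydrogenase, was at 10.5, 30.8, 1.09 and 1.64 CPM in WT mice and 0.268, 0.0818, 0.297 and 0.49 CPM in KO mice, a change of -5.3 (standard error 1.10, adjusted p = 0.0113). It overlaps *Zfp697* on the other strand, and reads of the pair cannot be told apart if the counting ignored strand. Of the 2 rises, 1 was left without WT replicate 1, 3 or 4 or KO replicate 2 or 3. Of 14 genes of the growth hormone and STAT5 axis 3 fell, 1 without WT replicate 1 or 3 or KO replicate 1. Without WT replicate 2 or KO replicate 2 or 3, or with libraries scaled by totals alone, 0 fell by edgeR, while 6 had an unadjusted p under 0.05 with all mice and DESeq2 called 5 lower. The growth hormone receptor *Ghr* fell by 0.42 (adjusted p = 0.0444), called in 1 of the 8 fits without a mouse, that without KO replicate 4 (up to 0.144). *Igf1* (-0.32, standard error 0.23, adjusted p = 0.377) and the STAT5 targets *Cish* (0.49, standard error 0.38, adjusted p = 0.417) and *Socs2* (-0.66, standard error 0.54, adjusted p = 0.444) did not pass.

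The major urinary proteins, pheromone carriers made in liver, had the lowest median of all lists, -3.17, with 7 of 18 tested genes falling (of 22 listed) and 1 rising. They are nearly identical in sequence, so reads may have been split among them. *Mup10* had the largest log2 fold change (-9.23, standard error 2.51, adjusted p = 0.0343), but WT replicate 2 alone was at 1648 CPM and the other WT mice were between 1.6 and 5.81 CPM, and the groups overlapped. *Mup20*, a male scent signal, went the other way, at 18.7, 48.9, 22.6 and 31.2 CPM in WT mice and 78.1, 137, 271 and 79.9 CPM in KO mice, a rise without overlap (2.22, standard error 0.43, adjusted p = 0.00907). *Mup3* was at 2702, 2701, 1431 and 2029 CPM in WT mice and 592, 446, 771 and 2115 CPM in KO mice, where KO replicate 4 lay with the WT mice, and was not called (-1.18, standard error 0.44, adjusted p = 0.1). Without KO replicate 4, 16 fell. Falls numbered 1 without WT replicate 2 or KO replicate 3 and 2 without KO replicate 1. Without KO replicate 2, 0 fell by edgeR, where with all mice 14 had an unadjusted p under 0.05 and DESeq2 called 5 lower. *Mup10* lost its call without WT replicate 2 or KO replicate 1, 2 or 3 (adjusted p up to 0.114).

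**Figure D5:**
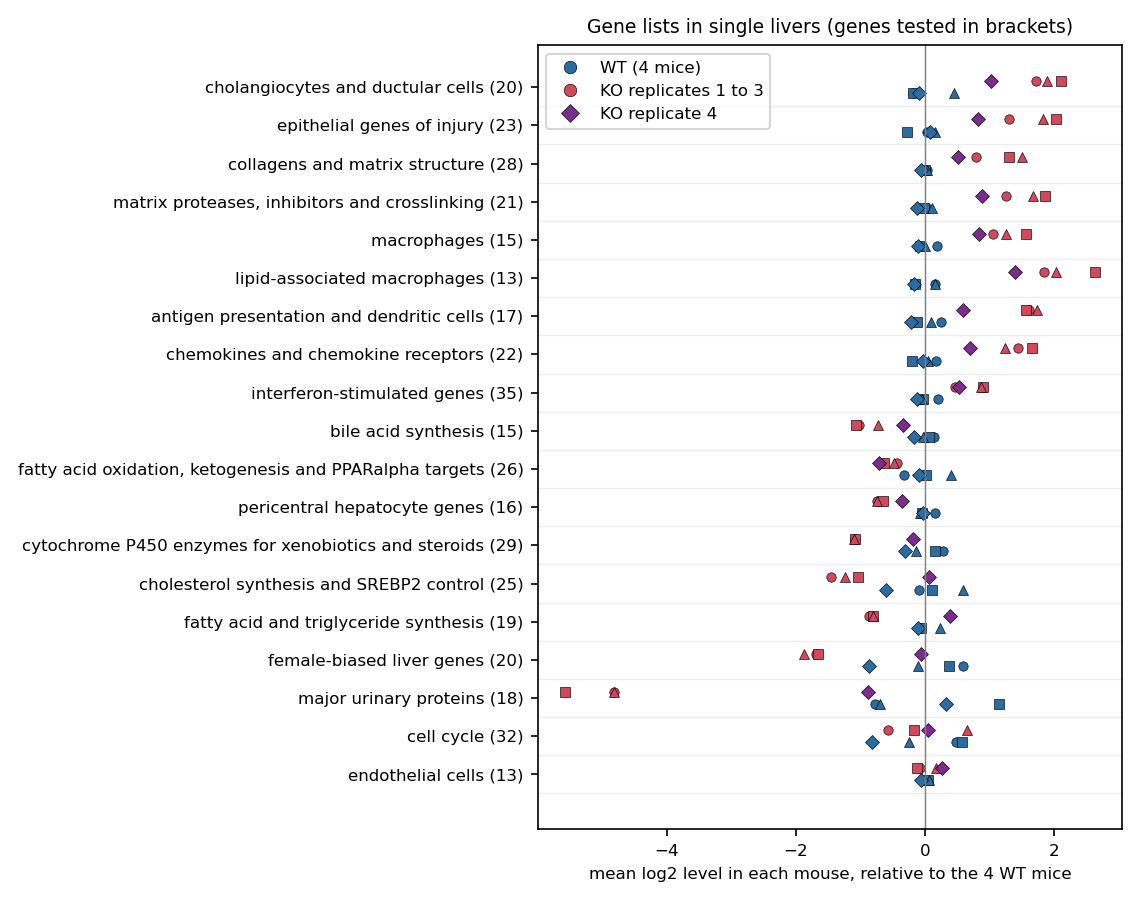
For 19 lists, each point is 1 mouse and the x axis is the mean log2 CPM of the tested genes relative to the 4 WT mice. KO replicate 4 (diamond) lies nearest the WT mice in most lists, at 1.02 for cholangiocyte genes where KO replicates 1 to 3 are between 1.73 and 2.11, and at -0.19 for P450 genes where those 3 are between -1.11 and -1.09.

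KO replicate 4 differed from the other KO mice by an unequal amount over these lists. For macrophage genes its mean log2 level relative to WT mice was 0.84, with KO replicates 1 to 3 between 1.06 and 1.57. For fatty acid oxidation it was the lowest of the KO mice, at -0.71 against -0.63 to -0.43. For cholesterol synthesis it was at 0.067 and for fatty acid synthesis at 0.40, at or above the WT mean, where KO replicates 1 to 3 were between -1.45 and -0.80.

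The same genotypes were compared in chow-fed males, whose 8 libraries the female fit did not use. Of the 919 genes over 2-fold higher in female KO livers, 851 were tested in males, and 837 (98.4%) had a positive log2 fold change there. Their medians were 1.46 in both sexes. Of the 163 genes over 2-fold lower, 151 were tested in males, 135 (89.4%) were also negative, and the medians were -1.42 in females and -0.81 in males. The share of each sign over all genes tested in males is not given here, so these percentages have no background to be read against. As examples in males, *Gpnmb* had a log2 fold change of 7.23 (adjusted p = 0.0138), *Timp1* one of 4.32 (0.0192) and *Trem2* one of 4.3 (0.0219). *H2-Aa* at 0.63 (0.583) and *Irf7* at 0.16 (0.854) did not pass the male test. Neither is among the genes that passed the test of a sex difference below, so such a difference is not shown for them. The male fit alone called 148 genes higher and 24 lower. Without male WT replicate 1, an alternative chosen after seeing the data, it called 718 higher and 478 lower. That library had 17703 genes with a count, against 21589 to 24053 in the other chow-fed males. It is part of the male fold changes above and of the interaction test, and the cause was not tested.

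A difference in the genotype effect between the sexes was tested as an interaction on the 16 chow libraries. It passed for 4 of 17026 genes (0.0235%), in females minus males. *Arsa*, the lysosomal arylsulfatase A, differed by 1.27 (standard error 0.18, adjusted p = 0.0346) on the log2 scale. With CPM scaled over the 16 libraries, it was in females at 18.4, 19.6, 18 and 23.1 CPM in WT and 32.9, 35.3, 40.7 and 36.5 CPM in KO mice, without overlap, and in males at 80.4, 69.8, 65.5 and 64.1 CPM in WT and 51.6, 53.3, 59.8 and 49.2 CPM in KO mice, with every KO mouse below every WT mouse. *Ppp1r3b*, the glycogen-targeting subunit named above, differed by -2.22 (standard error 0.34, adjusted p = 0.0346). The female levels were 401, 366, 459 and 399 CPM in WT and 163, 120.3, 92.6 and 167 CPM in KO mice and the male levels 99.6, 122, 120.4 and 137 CPM in WT and 234, 232, 174 and 105 CPM in KO mice, so every WT female was above every WT male. *Fam19a2* differed by -5.17 (standard error 0.78, adjusted p = 0.0346), being at 0.0408 to 0.238 CPM in every chow-fed male. The processed pseudogene *Gm10241*, which lies within *Yeats2* on the other strand, differed by 2.42 (standard error 0.38, adjusted p = 0.0361). Next came *Palld*, an actin-binding protein, at -1.08 (standard error 0.19, adjusted p = 0.1), which did not pass. Each of the 4 was called in 5 to 7 of 21 alternative fits, and the number of genes called ran from 0 to 75 when 1 mouse was left out. It was 75 without male WT replicate 1, 13 without female KO replicate 4, 4 without female WT replicate 4, 1 without male WT replicate 4 or male KO replicate 4, and 0 without any other mouse, where 843 to 1207 genes had an unadjusted p under 0.05. That is 4.86% to 6.95% of the genes tested, where a threshold of 0.05 gives 5% without any effect. The share was 6.26% with all 16 libraries and 13.4% without male WT replicate 1.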

How the data were processed

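Polyadenylated RNA from mouse liver was sequenced, with reads aligned to mm10 by HISAT2 2.0.5 and counted per gene by featureCounts 1.5.0-p3, per the submitters' processing notes. DESeq2 1.20.0 and GATK 4.1.1.0 are listed there too, and whether the counting used strand is not given in the sources used here. The authors deposited 1 table of 54532 genes with raw read counts, which were used here, and 32 columns of FPKM and 35 columns of their own fold changes, p-values and adjusted p-values, which were not used. Of the count columns, 8 enter the main comparison and 8 more, from chow-fed males, the comparison of the sexes. A fit over the 16 libraries of all female groups is 1 of the alternatives.

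Genes passing filterByExpr (16205) were tested with the quasi-likelihood test of edgeR 4.0.16 in R 4.3.3, with trimmed mean of M values (TMM) scaling and Benjamini-Hochberg adjustment over all of them, and calls were made at an adjusted p under 0.05. CPM use the same scaling, fold changes of genes near 0 counts depend on edgeR's prior count, and standard errors were derived from the F statistic. The interaction of sex and genotype used all 16 chow libraries (17026 genes). Both tests were checked on simulated counts with known changes, where each missed part of the 2-fold changes and the interaction test missed most of them. Alternatives were other scalings, DESeq2 1.42.0, other filters, a replicate block, a fit with all female groups and leaving out each mouse. Total counts were between 38453252 and 44771350 per mouse, and replicates differed by more than counting noise (chi-square per gene 39.3 to 130.5).

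The members of the comparison and the gene lists were chosen with earlier results of these data known. Genes are named if they are *Cyp2c70*, a defining gene of a list, among the 10 largest rises or 10 largest falls (called, protein-coding, a mean of at least 50 counts, groups without overlap), or among the 5 smallest adjusted p values of the interaction. Other genes are named as the extremes of a list, in a count of 5 or fewer, or where stated, and a few that these rules name are not reported here. Genomic and promoter sequences are from GENCODE vM21 and RefSeq on GRCm38. Same-numbered WT and KO mice are not tied by the labels, so the numbers were not used as pairs in the main fit. Their deviations from the group means correlated between -0.08 and 0.07, which does not show whether they shared a day or batch.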

Additional observations from a re-analysis of the deposited data

Results flagged for a closer look

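Among 266 groups of 4 values examined, 23 had 1 mouse farther from its group than Dixon's criterion at 95% allows, where chance gives about 1 in 20. KO replicate 4 accounts for 9 of them. Its mean log2 level relative to the WT mice was -0.19 for P450 enzymes (-1.11 to -1.09 in the other KO mice), 0.40 for fatty acid and triglyceride synthesis (-0.86 to -0.80), 0.58 for antigen presentation (1.57 to 1.74), -0.063 for female-biased genes (-1.88 to -1.65) and -0.88 for major urinary proteins (-5.59 to -4.82). It was also apart in *Cyp8b1* at 71.2 CPM, *Fasn* at 1212 CPM, *Cyp2b10* at 76.7 CPM and *Mup10* at 2.35 CPM. The cause was not tested.

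KO replicate 2 was high in *Mmp12* at 31.0 CPM (8.22 to 9.55 in the other KO mice) and in *Gpnmb* at 52.6 CPM (3.14 to 11.6).

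Among WT mice, replicate 1 was high in *Ccl2* at 1.33 CPM. WT replicate 2 was low in sulfotransferases at -0.54 and high in *Mup7* at 72.6 CPM and *Mup10* at 1648 CPM. WT replicate 3 was high in fatty acid and triglyceride synthesis at 0.23, in cholangiocyte genes at 0.45 and in *Herpud1* at 835 CPM. WT replicate 4 was low in NRF2 targets at -0.35, in ER stress genes at -0.35 and in *Cyp27a1* at 540.5 CPM, and high in *Lrtm2* at 0.303 CPM and *Dbp* at 61.2 CPM.

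The genotype effect differed between females and males on the log2 scale by 1.27 for *Arsa*, -2.22 for *Ppp1r3b*, -5.17 for *Fam19a2* and 2.42 for *Gm10241*, by the interaction term of edgeR (adjusted p 0.0346 to 0.0361), each lost in most of the alternatives. *Fam19a2* was at 0.0408 to 0.238 CPM in every chow-fed male and was not tested in the male fit, so a male genotype effect could hardly be measured.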

How the results depend on the processing

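The 1593 rises became 2727 and the 818 falls 275 with libraries scaled by totals alone. DESeq2 called 2070 and 1227. The falls numbered 1726 in the fit over all female groups, which also gave 262 falls over 2-fold where the main fit gave 163. Leaving out 1 mouse gave between 959 (without KO replicate 2) and 2081 (without KO replicate 4) rises, between 242 and 1116 falls for the same mice, and between 92 and 344 falls over 2-fold. Rises over 2-fold stayed within 1.5 times of 919 under each alternative, between 632 and 1252 without 1 mouse. The replicate number as a block gave 1231 rises and 527 falls, sharing 1182 and 448 genes with the main calls. The labels give no pairing by number, and 1 of 4 KO mice correlated best with the WT mouse of its own number. Whether mice of the same number shared a day or batch was not tested. For the interaction, where 4 genes were called, edgeR called 0 with totals alone (985 at an unadjusted p under 0.05) and 0 with the block within sex (1001), DESeq2 called 72 (1464), and leaving out 1 mouse gave 0 to 75. Counts per list, where calls were made under either setting, moved by over 1.5 times in part of the lists. The fit over all female groups gave more falls in 16 of 32 lists and more rises in 5 of 32, DESeq2 more falls in 13 of 31, scaling by totals alone fewer falls in 11 of 26 and more rises in 9 of 36, and the block fewer falls in 9 of 27. No called value turned its direction under the alternatives run. Over 222 genes followed and 3313 refits, 3067 kept their side of the threshold, 145 lost it and 101 gained it. The block lost the call of 18 of these genes and gained that of 6, and not all of them are named above. Of 121 called genes, 88 were called under every alternative that gave them a value. Some alternatives left some genes untested. A gene that did not pass is not shown to be level with 4 mice a group.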

Other observations

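Some gene families were counted by their shared symbol, a choice made after the values were seen and with no test of the family. Of 12 tested *Galnt* genes, which start mucin-type glycosylation, 6 rose (median log2 fold change 0.41). Of 17 *Serpina* genes, secreted protease inhibitors of the alpha-1-antitrypsin cluster that hepatocytes make, 5 of them also in a list above, 8 fell (median -0.43), and 4 of 8 *Chchd* genes, small mitochondrial proteins, fell (median -0.32). The background is 9.83% of all tested genes rising and 5.05% falling.

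The WT mice were not uniform, and the cause was not tested. The genes and lists that follow are shown for their spread among the mice. *Serpina1e*, a secreted antitrypsin, was at 998, 1223, 232 and 58.5 CPM in WT replicates 1 to 4 and at 30.8, 19.9, 38.2 and 73.0 CPM in KO mice. *Cfd*, adipsin, an adipocyte-type gene, was at 16.5, 19.5, 0.0258 and 0.0253 CPM in WT mice and at 2.10, 11.2, 14.1 and 0.103 CPM in KO mice. The list of adipocyte-type and lipid droplet genes split the WT mice in the same way, with mean log2 levels of 0.81 and 0.70 in replicates 1 and 2 and -0.74 and -0.77 in replicates 3 and 4. The erythroid list was at 1.46 and 1.24 in WT replicates 1 and 2 and at -0.74 and -1.96 in WT replicates 3 and 4. *Cyp26a1*, which breaks down retinoic acid, was at 305 CPM in WT replicate 4 and between 8.61 and 46.4 CPM in the other 7 mice. *Per3*, a clock gene, was at 21.8 CPM in WT replicate 4 and 31.7 CPM in KO replicate 4, and between 3.93 and 12.4 CPM in the other 6 mice.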
